A study of Mus musculus with 12 samples.

Results

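The genes described here are 9 genes of the hedgehog signalling pathway, Shh, Ihh, Ptch1, Smo, Sufu, Gli1, Gli2, Gli3 and Hhip, chosen by name and all found among the 20308 gene symbols of the deposited table. Their RNA was measured at embryonic day 15.5 in urogenital sinus epithelium from mouse embryos of the strain C57BL/6J. For the 8 Dnmt1cKO libraries, embryos were used in which a Cre recombinase driven by Shh deleted Dnmt1, the gene of the enzyme that copies DNA methylation after replication, in this epithelium; the 4 Control libraries came from wildtype embryos. Epithelium was freed from stroma with trypsin, and tissue of several embryos was pooled for each batch of harvest. The driver of the Cre is thus itself the first gene of the pathway. The share of cells with the deletion was not measured, and the level of Shh does not give it. The labels do not say whether the Cre replaces an allele of Shh.

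In this organ the epithelium makes Sonic hedgehog, the secreted ligand encoded by Shh, and the surrounding stroma answers it. The ligand binds Patched 1, which otherwise holds the membrane protein Smoothened silent, and active Smoothened frees the Gli transcription factors from Sufu, their cytoplasmic inhibitor. Gli1, Ptch1 and Hhip, a decoy receptor, are themselves switched on by the signal, so their RNA is widely used as a readout of the response. Sonic hedgehog from this epithelium is known for its part in prostatic budding and in the growth of the external genitalia and bladder.

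No member passed the test between Dnmt1cKO and Control. Shh was abundant in all 8 Dnmt1cKO libraries, Smo was detected in all of them, and the factors Gli1 and Gli2 were low and uneven in both groups. The receptor gene Ptch1 was uneven in Dnmt1cKO, at 3.59 to 41.1 CPM. It stood at 34.9, 35.1 and 46.7 CPM in Controls 1 to 3 and at 5.69 CPM in the library labelled Control 4. Since these are bulk samples, fewer cells of a type and less RNA per cell cannot be told apart in any of these values. Ihh and Hhip had no count in any Control library. Of the 8 members that passed the filter on low counts (Ihh did not), 0 were called higher and 0 lower by the edgeR quasi-likelihood test at a Benjamini-Hochberg adjusted p under 0.05, against 1.03% of all 12761 genes tested called higher and 1.55% called lower, 2.59% in all. DESeq2 called 0 members, against 11.9% of all genes in either direction, and limma-voom 0, against 0.251%. At an unadjusted p under 0.05 edgeR gave 1 member higher, Hhip, and 0 lower, against 17.7% of all genes in either direction. At the same level DESeq2 gave Hhip higher and Shh lower, and limma-voom gave 0. For these 2 methods no unadjusted share of all genes is given here, so their counts are no result about the members. For 0 members did the groups not overlap, against 3.08% of the genes tested. The median log2 fold change of the 8 tested members was -0.10, and that of all genes tested was 0.22; with Hhip at its lower bound in place of its fitted value the median was the same.

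**Figure D1:**
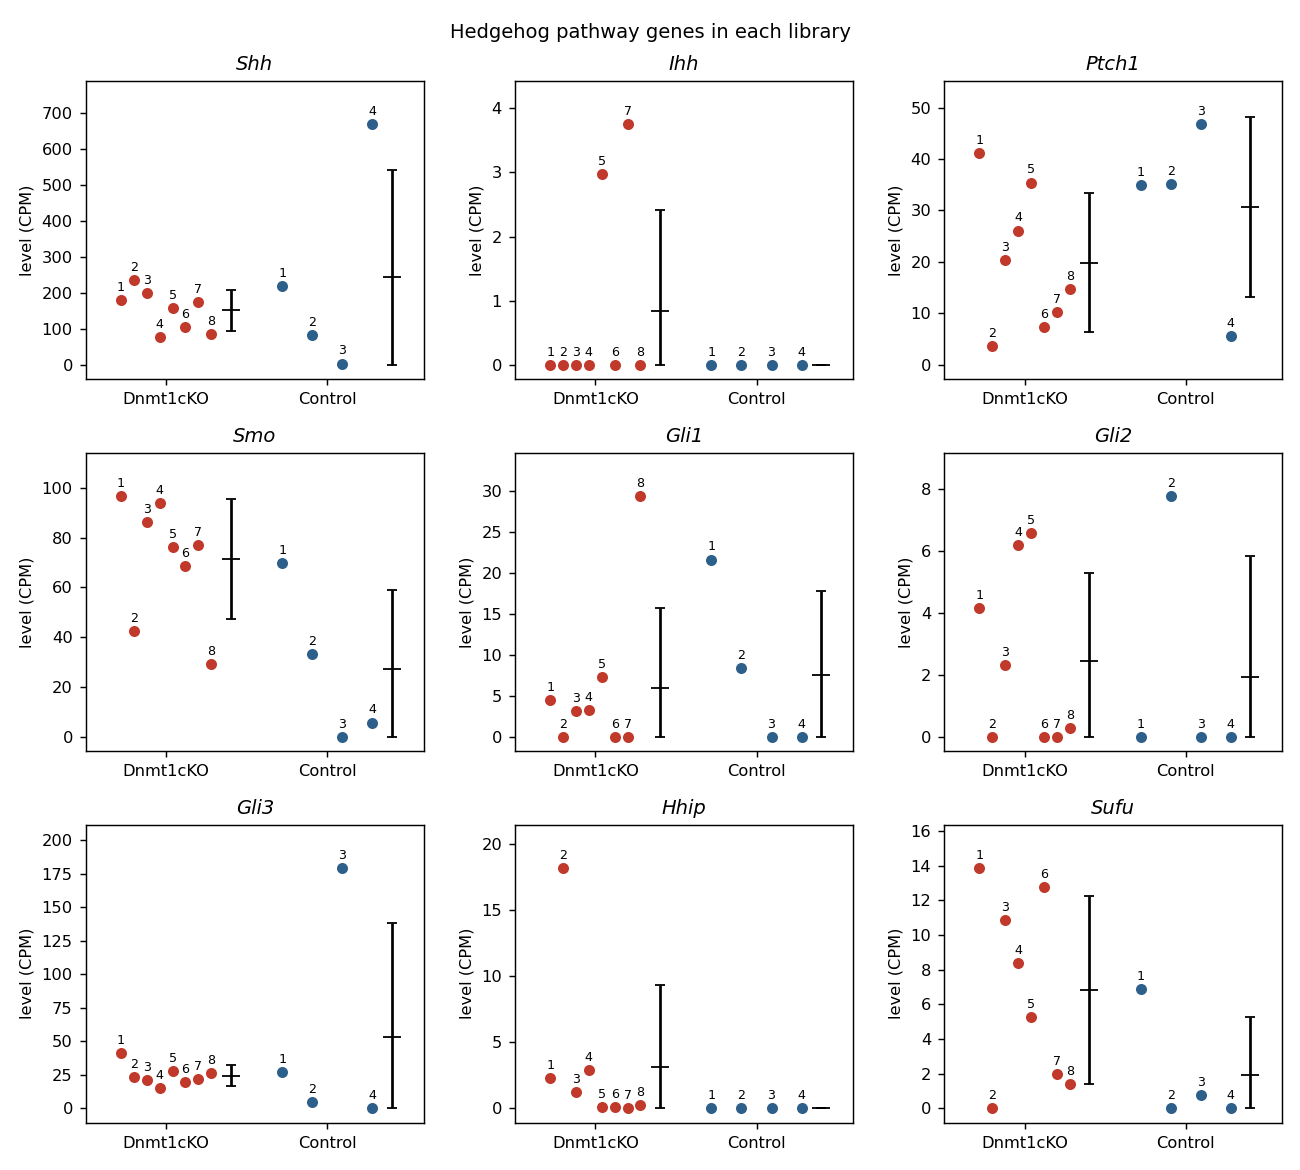
Level of each of the 9 genes in CPM (counts as a share of their library, with TMM scaling) in each library, with Dnmt1cKO in red, Control in blue and the library number above each point. Horizontal bars are group means and vertical bars 1 SD, with the lower end stopped at 0; the groups overlap for every gene, and Ihh and Hhip are at 0 in all 4 Controls.

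Some libraries stood apart, and they touch most of the results. The Dnmt1cKO libraries held 4007533 to 11970907 expected counts, while Controls 1 to 4 held 7577706, 2915193, 1613514 and 543591, so that 1 count was worth 0.0730 to 0.285 CPM in Dnmt1cKO libraries and 2.84 CPM in the library labelled Control 4. Dnmt1 stood at 22.8 to 97.0 CPM in Dnmt1cKO libraries and at 114 to 237 CPM in Controls 1 to 3, but at 2.84 CPM, a single count, in the library labelled Control 4, against its label (log2 fold change -1.29 ± 0.63, SE; edgeR, Benjamini-Hochberg adjusted p = 0.284). That library also had the fewest genes detected, 6740, against 9085 to 13098 in the other Controls and 10197 to 13829 in Dnmt1cKO. Whether its Dnmt1 value goes with this was not tested. Control 3 kept the epithelial adhesion gene Epcam at 783 CPM but had 2.26 CPM of Trp63, the master regulator of basal epithelium. It had 0 counts of the epithelial factor Grhl2. In the other Controls Trp63 stood at 230 to 250 CPM. Not all epithelial genes were low in Control 3, where the keratins Krt8 and Krt18 stood at 856 and 879 CPM. They stood at 514 and 239 CPM in Control 1 and at 613 and 300 CPM in Control 2. The epithelial genes Epcam and Cdh1 were detected in every library, as the labelled tissue implies. RNA of other cells was present too: 6 erythroid markers summed to 10.4 to 1497 CPM in Dnmt1cKO and 429 to 5798 CPM in Control, and 6 neural and glial markers to 4.27 to 247 CPM in Dnmt1cKO and 79.9 to 448 CPM in Control. Of the 9 members, 5 to 9 were detected in each Dnmt1cKO library, 6 in Controls 1 and 2, 4 in Control 3 and 3 in the library labelled Control 4. Results of the members and of the called genes are therefore also given without Control 3 and the library labelled Control 4, an omission chosen with earlier results of these data known.

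The ligand Shh (ENSMUSG00000002633.4, GRCm38 chromosome 5, 28456815 to 28467256, minus strand) was the most abundant member. It stood at 76.5 CPM at the lowest, 166 CPM at the median and 236 CPM at the highest in the 8 Dnmt1cKO libraries, and at 218, 84.3, 3.77 and 668 CPM in Controls 1 to 4. The Dnmt1cKO libraries formed a band that held Controls 1 and 2, whereas Control 3 lay below and the library labelled Control 4 above every one of them. The value in Control 3 was 5 counts (exact Poisson 95% interval 1.22 to 8.80 CPM) and that in the library labelled Control 4 was 235 counts (586 to 759 CPM), and such intervals cover counting error only. The group means were 152 ± 57.1 CPM in Dnmt1cKO (SD, n = 8) and 244 ± 297 CPM in Control (SD, n = 4).

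The log2 fold change of Shh was -0.67 ± 0.64 (SE), with a 95% interval from -1.99 to 0.65, and did not pass the edgeR quasi-likelihood test (Benjamini-Hochberg adjusted p = 0.634). The sign depended on the scale and on single libraries. The difference in mean log2(CPM + 2) was 0.63 (p = 0.588 in a two-sided exact permutation test), and the fold change was 0.62 without the library labelled Control 4 and -1.07 without Control 3. The fold change without Control 3 had an unadjusted edgeR p of 0.0373 (adjusted p = 0.275). Without both of them it came to 0.061, with an edgeR adjusted p of 0.976. DESeq2 gave -1.64, with an unadjusted p of 0.0446 and an adjusted p of 0.180. Library codes 4, 5, 6 and 7, given in the sample descriptions without explanation, hold both groups, and within them Dnmt1cKO differed from Control in log2(CPM + 2) by -0.13, -0.14, 4.79 and -2.50, the last 2 being the codes of these libraries. Exons of Shh overlap an annotated antisense RNA, 9530036O11Rik, and the long noncoding RNA Gm26894, both on the opposite strand; since use of strand in counting is not given, reads from them cannot be told apart from Shh.

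Ihh, the Indian hedgehog ligand best known from cartilage and gut (ENSMUSG00000006538.12, chromosome 1, 74945315 to 74951672, minus strand), was near absent. It had 34 counts in Dnmt1cKO 5 (2.98 CPM) and 36 counts in Dnmt1cKO 7 (3.75 CPM), and 0 counts in the other 6 Dnmt1cKO libraries and in all 4 Controls. A count of 0 allows up to 0.369 CPM in Control 1 but up to 8.53 CPM in the library labelled Control 4, taking 3 counts of the library as the limit, so levels like those of Dnmt1cKO 5 and 7 were not detectable in that library. With the counts of each group pooled, 3 counts over the whole Control group come to 0.235 CPM, and the pooled Dnmt1cKO level of 0.929 CPM was at least 3.96-fold higher, or at least 2.20-fold without Dnmt1cKO 7. This bound is for the pooled level, since the library labelled Control 4 alone allows more, and it leaves out the spread between libraries. The exact permutation p was 0.515, and 1 without Control 3 and the library labelled Control 4, and Ihh was too low for the edgeR test.

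The receptor Ptch1 (ENSMUSG00000021466.12, chromosome 13, 63508328 to 63573598, minus strand) binds the ligand and is also induced by it. Dnmt1cKO 1 to 8 held 41.1, 3.59, 20.4, 26.1, 35.4, 7.29, 10.2 and 14.8 CPM, and Controls 1 to 4 held 34.9, 35.1, 46.7 and 5.69 CPM. Controls 1 to 3 lay close together and above 6 of the 8 Dnmt1cKO libraries, but Dnmt1cKO 1 and 5 reached their level and the library labelled Control 4, with 2 counts, did not. The means were 19.9 ± 13.5 CPM in Dnmt1cKO (SD, n = 8) and 30.6 ± 17.5 CPM in Control (SD, n = 4). The log2 fold change of -0.64 ± 0.84 (SE, 95% interval -2.35 to 1.06) did not pass (edgeR, Benjamini-Hochberg adjusted p = 0.743), and the exact permutation p was 0.406. It was -0.73 without Control 3 and the library labelled Control 4, and 0.19 with the stromal level as a covariate. With that covariate the median of all genes tested also moved, from 0.22 to 0.62. By library code (4, 5, 6 and 7), log2(CPM + 2) of Ptch1 differed by -0.72, -0.40, -0.38 and 0.69.

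Hhip, the decoy receptor that binds hedgehog ligands outside the cell (ENSMUSG00000064325.4, chromosome 8, 79965851 to 80058006, minus strand), had 0 counts in all 4 Controls. Its level was 2.33, 18.2, 1.23, 2.89, 0.0877, 0.0999, 0 and 0.285 CPM in Dnmt1cKO 1 to 8, so that 4 libraries held 16 to 81 counts and the other 4 held 0 or 1. Its mean over Dnmt1cKO libraries was 3.14 ± 6.18 CPM (SD, n = 8). With the counts of each group pooled, its 2.12 CPM in Dnmt1cKO was at least 9.05-fold higher than the 0.235 CPM that 3 counts over the whole Control group allow, and at least 4.75-fold without Dnmt1cKO 2. This bound covers counting error and not the spread between libraries. A single Control can allow more, up to 8.53 CPM in the library labelled Control 4. The edgeR test gave an unadjusted p of 0.0163 and a Benjamini-Hochberg adjusted p of 0.171, and the exact permutation p was 0.154, or 0.267 without Control 3 and the library labelled Control 4. With Ihh it was 1 of 2 members without a count in Control but with counts in Dnmt1cKO, a pattern that 13.9% of all genes with a count anywhere showed. A small RNA gene, Gm27820, overlaps an exon of Hhip on the opposite strand.

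Since the deleted enzyme acts on CG dinucleotides (CpG), the promoters of the 2 members without counts in Control and of Ptch1 are shown as the 250 bases before the transcription start on the strand of the gene, with every CpG in capitals. They are from RefSeq (GRCm38.p6) and lie at chr8:80058009-80058258 for Hhip, chr1:74951673-74951922 for Ihh and chr13:63565736-63565985 for Ptch1, all on the minus strand. The RefSeq start used for Ptch1 lies inside the longer gene that GENCODE annotates.
Hhip: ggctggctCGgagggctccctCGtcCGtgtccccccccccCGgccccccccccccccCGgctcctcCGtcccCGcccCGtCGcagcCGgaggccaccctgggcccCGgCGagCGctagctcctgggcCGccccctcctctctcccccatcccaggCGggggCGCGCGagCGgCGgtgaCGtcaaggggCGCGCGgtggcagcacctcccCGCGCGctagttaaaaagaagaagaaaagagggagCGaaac
Ihh: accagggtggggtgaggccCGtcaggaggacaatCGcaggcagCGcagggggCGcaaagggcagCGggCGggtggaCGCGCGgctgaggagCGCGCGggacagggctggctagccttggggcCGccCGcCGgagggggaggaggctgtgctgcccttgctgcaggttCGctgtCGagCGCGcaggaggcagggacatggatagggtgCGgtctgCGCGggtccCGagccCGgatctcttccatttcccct
Ptch1: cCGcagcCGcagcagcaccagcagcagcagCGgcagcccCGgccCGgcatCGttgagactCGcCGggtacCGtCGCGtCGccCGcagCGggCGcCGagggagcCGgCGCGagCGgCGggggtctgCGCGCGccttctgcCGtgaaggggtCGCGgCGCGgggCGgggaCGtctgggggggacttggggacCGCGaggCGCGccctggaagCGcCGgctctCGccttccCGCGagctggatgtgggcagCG
These stretches hold 28, 24 and 41 CpG. In the full windows of 300 bases, which run to 50 bases after the start, the 7 members with an entry (Shh and Gli1 had none) held 12 (Sufu) to 47 CpG (Ptch1), with a median of 30; Hhip and Ihh both held 30. The median was 7 over all 32851 promoters listed, 20 over those of genes tested, and 9 over those of the genes called higher in Dnmt1cKO. Hhip and Ihh thus lay above the median of the genes that rose. Methylation was not measured. The binding letters of the Gli factors, GACCACCCA, searched on both strands (TGGGTGGTC on the other), were in 0 of the 7 windows and in 0.253% of all windows listed.

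Smo, which encodes Smoothened, the membrane protein that carries the signal into the cell (ENSMUSG00000001761.7, chromosome 6, 29735503 to 29761365, plus strand), was the second most abundant member per exon length in Dnmt1cKO. Dnmt1cKO 1 to 8 held 96.7, 42.4, 86.1, 93.9, 76.1, 68.6, 77.1 and 29.1 CPM, and Controls 1 to 4 held 69.7, 33.4, 0 and 5.69 CPM. Controls 1 and 2 lay inside the Dnmt1cKO range, and Control 3 and the library labelled Control 4, with 0 and 2 counts, lay below it. The means were 71.3 ± 24.1 CPM in Dnmt1cKO (SD, n = 8) and 27.2 ± 31.9 CPM in Control (SD, n = 4). The log2 fold change of 1.34 ± 0.81 (SE, 95% interval -0.31 to 2.99) did not pass (edgeR, Benjamini-Hochberg adjusted p = 0.409). The difference of 2.29 in mean log2(CPM + 2) gave p = 0.0182 in the two-sided exact permutation test, unadjusted and the lowest of the 9 members; without Control 3 and the library labelled Control 4 it was 0.45 with an exact permutation p of 0.422, so the difference rested on these libraries. Without either of them alone the exact permutation p was 0.0545. By library code (4, 5, 6 and 7) the difference was 0.30, 1.44, 5.29 and 2.86.

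Sufu, the inhibitor that holds Gli proteins in the cytoplasm (ENSMUSG00000025231.17, chromosome 19, 46396896 to 46488804, plus strand), was low. Dnmt1cKO 1 to 8 held 13.9, 0, 10.9, 8.36, 5.26, 12.8, 1.98 and 1.43 CPM, and Controls 1 to 4 held 6.88, 0, 0.754 and 0 CPM. Seen in 7 of 8 Dnmt1cKO libraries and 2 of 4 Controls, it averaged 6.82 ± 5.42 CPM in Dnmt1cKO (SD, n = 8) and 1.91 ± 3.34 CPM in Control (SD, n = 4). Its log2 fold change was 1.64 ± 1.47 (SE) and did not pass (edgeR, Benjamini-Hochberg adjusted p = 0.604; exact permutation p = 0.0949), and its 95% interval ran from -1.34 to 4.62. Without Control 1, which held 56 of the 57 Control counts, it was 4.62, and without Control 3 and the library labelled Control 4 it was 1.03. The difference in log2(CPM + 2) was 0.53, 2.37, 1.40 and 1.55 by library code.

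Among the Gli transcription factors, Gli3, which acts mainly as a repressor when the signal is off (ENSMUSG00000021318.15, chromosome 13, 15463235 to 15730026, plus strand), was the only one detected in all 8 Dnmt1cKO libraries. It stood at 15.3 CPM at the lowest, 22.6 CPM at the median and 41.2 CPM at the highest in Dnmt1cKO, and at 27.4, 5.06, 179 and 0 CPM in Controls 1 to 4. Control 3 lay far above the highest Dnmt1cKO library, and Control 2 and the library labelled Control 4 lay below the lowest. The means were 24.6 ± 7.78 CPM in Dnmt1cKO (SD, n = 8) and 53.0 ± 85.1 CPM in Control (SD, n = 4). The log2 fold change of -1.12 ± 0.84 (SE, 95% interval -2.83 to 0.59) did not pass (edgeR, Benjamini-Hochberg adjusted p = 0.526). It was 1.06 without Control 3, and 0.64 without the library labelled Control 4 as well. The difference in mean log2(CPM + 2) was 0.63 (exact permutation p = 0.509), opposite in sign to the fold change; it was 1.78 with an exact permutation p of 0.0424 without Control 3, and -0.38 without the library labelled Control 4. By library code it was -0.34, 1.29, -2.61 and 3.61. A processed transcript, Gm6556, overlaps exons of Gli3 on the opposite strand.

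Gli1, the activator whose RNA is the usual readout of the response (ENSMUSG00000025407.7, chromosome 10, 127329882 to 127341974, minus strand), was detected in 5 Dnmt1cKO and 2 Control libraries. Dnmt1cKO 1 to 8 held 4.52, 0, 3.16, 3.30, 7.28, 0, 0 and 29.4 CPM, and Controls 1 to 4 held 21.6, 8.43, 0 and 0 CPM. Dnmt1cKO 8 was the highest library of all, and the 3 Dnmt1cKO libraries without a count had depths at which 0 allows at most 0.673 CPM. The means of 5.96 ± 9.81 CPM in Dnmt1cKO (SD, n = 8) and 7.52 ± 10.2 CPM in Control (SD, n = 4) gave a log2 fold change of -0.42 ± 1.45 (SE, 95% interval -3.36 to 2.52), which did not pass (edgeR, Benjamini-Hochberg adjusted p = 0.914; exact permutation p = 0.848). Without Dnmt1cKO 8 it was -1.52, without Control 1 it was 0.89, and limma-voom gave -2.55. Leaving out Control 3 and the library labelled Control 4 gave -1.29, and a difference in mean log2(CPM + 2) of -1.64 (exact permutation p = 0.156) against -0.15 with all libraries. By library code log2(CPM + 2) differed by -2.20, -0.98, 2.21 and 1.32. Exons of Gli1 overlap Arhgap9, a gene of blood cells on the opposite strand, which had 23, 55, 32 and 53 counts in Dnmt1cKO 3, 4, 5 and 8 and 0 in every other library. Its level was highest, at 15.1 CPM, in Dnmt1cKO 8, the library with the highest Gli1; whether reads were shared between them was not tested.

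Gli2, the main activator of the first response (ENSMUSG00000048402.14, chromosome 1, 118834132 to 119053619, minus strand), was low and uneven. It had 57, 30, 60 and 75 counts in Dnmt1cKO 1, 3, 4 and 5, and at most 1 in the others of that group. Dnmt1cKO 1 to 8 held 4.16, 0, 2.31, 6.19, 6.58, 0, 0 and 0.285 CPM, and Controls 1 to 4 held 0, 7.75, 0 and 0 CPM. The 3 Dnmt1cKO libraries without Gli1, numbers 2, 6 and 7, were also the 3 without Gli2. The means were 2.44 ± 2.85 CPM in Dnmt1cKO (SD, n = 8) and 1.94 ± 3.88 CPM in Control (SD, n = 4), where all 23 counts came from Control 2. The log2 fold change of 0.21 ± 1.70 (SE, 95% interval -3.24 to 3.67) did not pass (edgeR, Benjamini-Hochberg adjusted p = 0.966; exact permutation p = 0.655), and without Control 2 there was no Control count to set it against. It was -0.55 without Control 3 and the library labelled Control 4. Its log2(CPM + 2) differed by 1.11, -0.25, 2.10 and 0.064 by library code.

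The order of levels was compared per kilobase of exon, taking all exons of a gene in GENCODE M21 together. In Dnmt1cKO the means were 53.3 CPM per kb for Shh, 12.7 for Smo, 2.56 for Gli3, 1.40 for Ptch1, 1.19 for Gli1, 0.886 for Sufu, 0.355 for Gli2, 0.346 for Hhip and 0.276 for Ihh. In Control the same level was 85.6 CPM per kb for Shh, 5.52 for Gli3, 4.84 for Smo, 2.16 for Ptch1, 1.505 for Gli1, 0.282 for Gli2 and 0.248 for Sufu, with Hhip and Ihh at 0. Shh exceeded Smo in all 8 Dnmt1cKO and all 4 Control libraries, but in Control 3 its 1.32 CPM per kb lay below Gli3 (18.7 CPM per kb) and Ptch1 (3.29 CPM per kb). Smo exceeded Gli3 in 8 of 8 and 3 of 4, Gli3 exceeded Ptch1 in 7 of 8 and 2 of 4, and Ptch1 exceeded Gli1 in 7 of 8 and 3 of 4. From Ptch1 down, the means of neighbours in the order differed by less than the larger of their SDs in Dnmt1cKO, and in Control this held for every pair of neighbours.

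**Figure D2:**
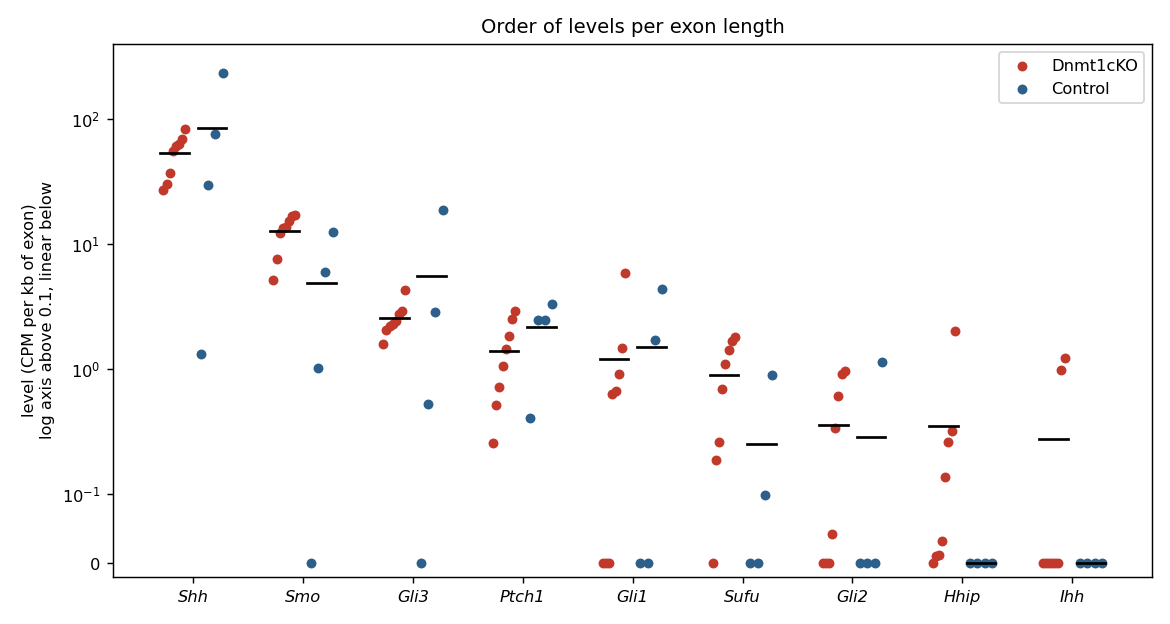
Level of each gene per kilobase of exon (CPM per kb, log axis above 0.1 and linear below) in each library, with Dnmt1cKO (red) left of Control (blue) and bars at group means. Shh has the highest mean in both groups, 53.3 CPM per kb in Dnmt1cKO and 85.6 in Control, and Gli1, Gli2, Sufu, Hhip and Ihh reach 0 in some libraries.

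The amount of stromal RNA varied widely between libraries. The summed level of 17 stromal markers, collagens and muscle genes among them, ran from 461 to 7540 CPM in Dnmt1cKO (median 2171) and from 1371 to 12788 CPM in Control (median 6164). Dnmt1cKO 1 to 8 held 2789, 7540, 652, 4817, 1554, 461, 648 and 4156 CPM, and Controls 1 to 4 held 5822, 6507, 12788 and 1371 CPM. All 17 markers passed the filter and each library held at least 16 of them, with Pdgfrb at 0 in Dnmt1cKO 2 and Twist1 at 0 in Dnmt1cKO 7 and in the library labelled Control 4. In edgeR 0 of them were called and 7 were lower at an unadjusted p under 0.05, where 17.7% of all genes passed in either direction; 1 had a value above 0 and 16 below, where 57.3% of all genes lay above 0, and the median log2 fold change was -1.57. The 2 Dnmt1cKO libraries with the lowest stromal sums, numbers 6 and 7, had 7.29 and 10.2 CPM of Ptch1 and no Gli1 or Gli2, and the library labelled Control 4, the lowest Control, had 5.69 CPM of Ptch1 and neither Gli1 nor Gli2. The pattern was not uniform: Dnmt1cKO 2, with the highest stromal sum of its group, had the lowest Ptch1 (3.59 CPM), no Gli1 or Gli2 and the highest Hhip, and Dnmt1cKO 3, with a sum of 652 CPM, had 20.4 CPM of Ptch1 and detectable Gli1. As a covariate, the stromal level was the mean log2(CPM + 2) of these markers and not their sum. With it no member was called in edgeR, and the part of stromal RNA in the levels of Ptch1, Gli1 and Gli2 was otherwise not tested.

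Shh and the summed epithelial markers shared their lowest and highest libraries but not the order of the others. Their correlation was not tested. The 16 epithelial markers summed to 7328 to 12768 CPM in Dnmt1cKO and to 10408, 20111, 4174 and 38319 CPM in Controls 1 to 4. The lowest and the highest sums of all libraries were those of Control 3 and of the library labelled Control 4, which also held the lowest and the highest Shh. In the library labelled Control 4 the largest parts of the sum were Cdh1 (12785 CPM) and the keratin Krt15 (11019 CPM). That library also held the highest Krt7, Krt8, Krt18 and Krt19 of all, at 2084, 3273, 3756 and 3085 CPM. Its Krt14 was at 0, and its Cldn7, a tight junction gene, at 5.69 CPM was the lowest of all libraries. Krt15 was about as high in Control 2 (11032 CPM). Control 2, with the second highest sum, had 84.3 CPM of Shh, while Dnmt1cKO 2, with a sum of 9785 CPM, had 236 CPM. Control 3 thus combined the lowest Shh (3.77 CPM) and Smo (0 counts) with the highest Ptch1 (46.7 CPM), Gli3 (179 CPM) and stromal sum, and the library labelled Control 4 combined the highest Shh with Ptch1 and Smo at 2 counts each.

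**Figure D3:**
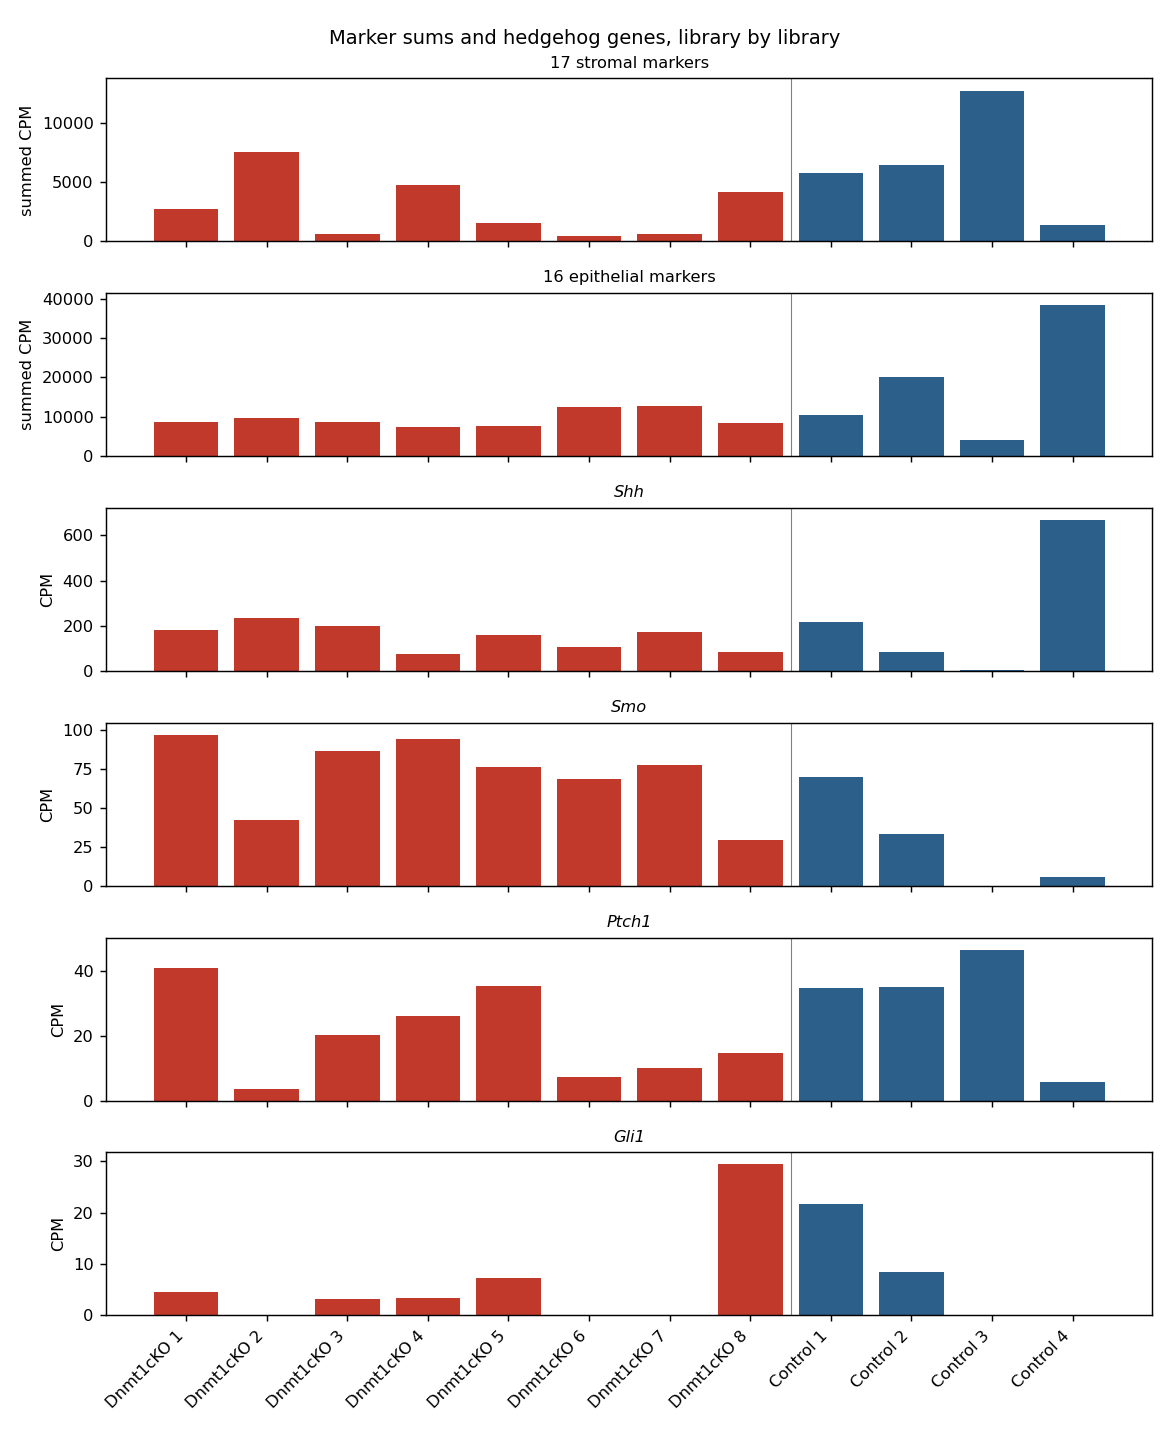
Summed level of the stromal and epithelial markers and level of Shh, Smo, Ptch1 and Gli1 (CPM, linear axes from 0) in each library, with Dnmt1cKO in red and Control in blue. Control 3 has the highest stromal sum (12788 CPM) with Shh at 3.77 CPM, and the library labelled Control 4 has the highest epithelial sum (38319 CPM) with Shh at 668 CPM.

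**Figure D4:**
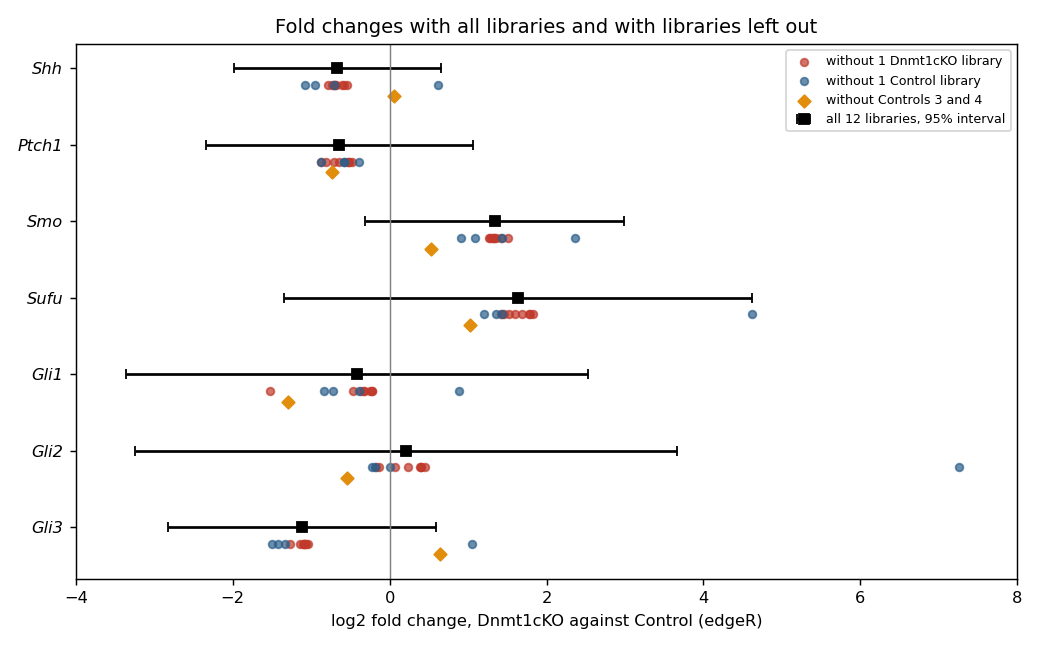
Fitted log2 fold change of 7 genes, Dnmt1cKO against Control, with the 95% interval (black), with each library left out (dots, by the group of the omitted library) and without Control 3 and the library labelled Control 4 (diamonds). All intervals include 0; Shh stands at 0.62 without the library labelled Control 4, Gli3 at 1.06 without Control 3 and Gli2 at 7.26 without Control 2, where no Control count remains. Hhip is left out because it had no count in Control.

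Other genes of the pathway were taken from lists of ligand release, receptor, intracellular and target genes, written with earlier results of these data known. Of 44 genes listed 38 were tested, of which 0 were called higher and 2 lower (edgeR, Benjamini-Hochberg), against 1.03% and 1.55% of all genes; at an unadjusted p under 0.05 there were 2 higher and 5 lower, against 17.7% of all genes in either direction. Their median log2 fold change was 0.064, and 19 had values above and 19 below 0, where 57.3% of all genes lay above 0. Both called genes act inside the cell. Kif3a, a motor subunit that builds the primary cilium in which the pathway signals (chromosome 11, 53567379 to 53601967), stood at 45.6 to 131 CPM in Dnmt1cKO with a median of 83.4 CPM, and at 105, 199, 446 and 762 CPM in Controls 1 to 4. The groups overlapped through Control 1, and Control 3 and the library labelled Control 4 were far above the rest. Its log2 fold change was -2.10 ± 0.46 (SE; edgeR, Benjamini-Hochberg adjusted p = 0.00973). It was -1.42 (adjusted p = 0.0914) once the library labelled Control 4 was left out, and -0.71 (adjusted p = 0.561) without Control 3 as well. Limma-voom with quality weights gave an adjusted p of 0.465, and edgeR with library totals as the only scaling gave 0.0558. When the stromal level entered the edgeR fit as a covariate, the adjusted p was 0.00255.

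Btrc, which encodes the subunit of a ubiquitin ligase that marks Gli proteins for processing (chromosome 19, 45363734 to 45530013), stood at 19.97 to 54.8 CPM in Dnmt1cKO with a median of 36.3 CPM, and at 74.9, 67.8, 52.8 and 506 CPM in Controls 1 to 4. Controls 1 and 2 lay above every Dnmt1cKO library, Control 3 lay inside their range, and the library labelled Control 4 was far above. Its log2 fold change was -2.23 ± 0.59 (SE; edgeR, Benjamini-Hochberg adjusted p = 0.0349). Leaving out the library labelled Control 4 gave -0.75 (adjusted p = 0.482), leaving out Control 3 as well gave -0.89 (adjusted p = 0.513), limma-voom gave an adjusted p of 0.402, and edgeR gave 0.0546 to 0.0704 without Dnmt1cKO 1, 3, 4, 5, 6, 7 or 8 (edgeR, Benjamini-Hochberg).

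No other gene of the lists was called in edgeR with TMM scaling and all 12 libraries. Most were uneven among the Controls. The 5 tested genes of ligand acylation and release had a median log2 fold change of 0.16. Disp1, the membrane transporter that releases the ligand, stood at 4.20 to 19.1 CPM in Dnmt1cKO, and at 5.90, 28.7, 101 and 0 CPM in Controls 1 to 4. Scube3, a secreted carrier of the ligand, stood at 3.14 to 53.0 CPM in Dnmt1cKO, and at 21.0, 1.01, 55.8 and 2.84 CPM in Controls 1 to 4. Its relative Scube1 reached 24.97 CPM in Dnmt1cKO 4 and at most 5.21 CPM in the other Dnmt1cKO libraries, and was detected in 1 Control, at 19.8 CPM in Control 1. Dhh and Scube2 were too low to test.

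The 5 tested receptors and co-receptors had a median log2 fold change of -0.65. Boc, a co-receptor, had an edgeR p under 0.05 before adjustment, on the lower side, and was called lower by DESeq2 (log2 fold change -2.46, adjusted p = 0.0365). It stood at 1.98 to 19.1 CPM in Dnmt1cKO, and at 13.9, 11.8, 125 and 0 CPM in Controls 1 to 4, so that only Control 3 lay above the Dnmt1cKO range. Gpc3, a membrane glypican that binds the ligand, stood at 244 to 377 CPM in Dnmt1cKO, and at 310, 400, 544 and 586 CPM in Controls 1 to 4. Cdon, another co-receptor, stood at 35.4 to 62.5 CPM in Dnmt1cKO, and at 55.0, 81.9, 207 and 0 CPM in Controls 1 to 4. Lrp2, a large endocytic receptor, stood at 2.28 to 53.5 CPM in Dnmt1cKO, and at 15.6, 5.73, 70.9 and 0 CPM in Controls 1 to 4.

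Within the 18 tested genes of the cilium and of Gli processing, those with the highest mean over all 12 libraries were Csnk1a1, a kinase of Gli proteins, Spop, the adaptor that brings Gli proteins to a ubiquitin ligase, and Cul3, the scaffold of that ligase. Csnk1a1 stood at 328 to 544 CPM in Dnmt1cKO, and at 447, 385, 234 and 472 CPM in Controls 1 to 4. Cul3 stood at 186 to 377 CPM in Dnmt1cKO, and at 211, 210, 375 and 14.2 CPM in Controls 1 to 4. Spop stood at 147 to 271 CPM in Dnmt1cKO, and at 220, 273, 656 and 682 CPM in Controls 1 to 4, the last 2 far above the rest. Its log2 fold change of -1.32 did not pass (edgeR, Benjamini-Hochberg adjusted p = 0.0602). Both Spop and Gsk3b, a kinase, were called lower by DESeq2 and by edgeR with RLE scaling. Spop was also called in edgeR without Control 1, Control 2 or Dnmt1cKO 8. DESeq2 also called Prkacb higher.

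The 6 tested stromal targets had a median log2 fold change of -1.01, with 2 above 0 and 4 below. The only one with an edgeR p under 0.05 before adjustment was Foxl1, on the higher side. It had 178 counts in Dnmt1cKO and 1 in Control, and a log2 fold change of 5.61 (edgeR, Benjamini-Hochberg adjusted p = 0.209). Its exact permutation p was 0.117. Bmp4, a growth factor, stood at 0.673 to 41.6 CPM in Dnmt1cKO, and at 8.85, 17.5, 0 and 0 CPM in Controls 1 to 4. Osr1, a transcription factor of urogenital mesenchyme, stood at 0.224 to 21.1 CPM in Dnmt1cKO, and at 25.1, 63.0, 1.51 and 2.84 CPM in Controls 1 to 4. Foxf1, a forkhead factor of gut and bladder mesenchyme, stood at 0 to 11.9 CPM in Dnmt1cKO, and at 9.47, 2.70, 25.6 and 2.84 CPM in Controls 1 to 4. The groups overlapped for all of these.

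The 4 cell cycle and survival targets had a median log2 fold change of 0.064. Ccnd2, a cyclin, averaged 943 ± 217 CPM in Dnmt1cKO (SD, n = 8) and 948 ± 331 CPM in Control (SD, n = 4). Ccnd1, another cyclin, stood at 91.3 to 167 CPM in Dnmt1cKO, and at 71.4, 35.4, 436 and 2.84 CPM in Controls 1 to 4, none of which lay within the Dnmt1cKO range. The survival gene Bcl2 stood at 37.1 to 178 CPM in Dnmt1cKO, and at 120, 209, 110 and 28.4 CPM in Controls 1 to 4.

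The genes whose levels followed Shh most closely over the 12 libraries were Bcr, Emc10, Copg2, Phip and Pogk. Likeness was measured as the root mean square difference between centred log2(CPM + 2) values, which was 0.34 for Bcr and 0.45 for Pogk, set against an SD of 1.63 for Shh itself. These libraries share depth and scaling, and over the 10 libraries other than Control 3 and the library labelled Control 4 the closest genes were instead Zfp516, Gak, Dock9, Ttc37 and Gm16515, at 0.28 to 0.31 against an SD of 0.61. For Ptch1 the closest were Msn, B4galt2, Cacna1h, Mtus2 and Isyna1 over 12 libraries, at 0.43 to 0.54 against an SD of 1.07, and Bach2, C530008M17Rik, Setd1b, B4galt2 and Msn over 10, so B4galt2 and Msn were on both lists for Ptch1 while no gene was on both lists for Shh.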

How the data were processed

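RNA of 12 libraries (8 Dnmt1cKO, 4 Control) was made into cDNA from poly-A RNA with random hexamers, per the labels' protocols. The authors deposited expected counts per gene, made with RSEM 1.2.3 and Bowtie 0.12.9 against mm10 (equal to GRCm38), with bcl2fastq 2.17.1.14 before that, per the submitters' processing notes; their annotation and use of strand were not given in the sources used here. Fractional expected counts were found for 38.5% of the genes the authors deposited, and RSEM shares reads between similar genes.

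Expected counts were rounded to whole numbers. The 4471 genes without a count and genes failing filterByExpr (minimum count 10, minimum total 15) were left out of the test, which leaves 12761. The genotypes were compared with edgeR 4.0.16 (TMM scaling, quasi-likelihood test, Benjamini-Hochberg adjustment over all genes tested, threshold 0.05) in R 4.3.3. Single genes were also compared by the exact two-sided permutation test of mean log2(CPM + 2). DESeq2 1.42.0, limma 3.58.1 (voom with quality weights), other scalings, no filter, a pseudocount of 0.5, each library left out, Control 3 and the library labelled Control 4 left out, a block, summing the code 7 Dnmt1cKO libraries and a stromal covariate were alternatives. The test was run on simulated counts with a smaller spread than these libraries show (common coefficient of variation 0.98). That run gives no power or error rate for the data at hand. Nothing says that the libraries are separate litters, so the p-values speak only of the spread among the libraries at hand; 0 pairs agreed within sampling noise (lowest chi-square per degree of freedom 28.1).

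The members and the lists were chosen with earlier results of these data known. Named besides them were every called gene of the wider lists, up to 3 genes with the highest mean CPM per list, and the 5 genes nearest to Shh and to Ptch1. Boc, Gsk3b, Prkacb, Foxl1, Dhh and Scube2 were named after their values were seen. Sample descriptions hold a code (b2 to b7) that the labels do not explain.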

Additional observations from a re-analysis of the deposited data

Results flagged for a closer look

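Values of 9 genes in each group were examined, less Hhip and Ihh in Control, which were all at 0. In 5 of these 16 sets, 1 library lay apart from the rest of its group by a gap above Dixon's 95% critical value. Chance flags about 1 in 20 groups of normally distributed values. CPM values with many zeros are not of that kind, so 5 of 16 was not read as an excess. Gli1 stood at 29.4 CPM in Dnmt1cKO 8, where its 7 fellow libraries reached at most 7.28 CPM. Hhip stood at 18.2 CPM in Dnmt1cKO 2, and the other Dnmt1cKO libraries reached at most 2.89 CPM. Gli3 stood at 179 CPM in Control 3, against at most 27.4 CPM in the other Controls. Gli2 stood at 7.75 CPM in Control 2, with 0 in the other 3 Controls, a pattern that the rule flags at any level. Sufu stood at 6.88 CPM in Control 1, against at most 0.754 CPM in the others.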

How the results depend on the processing

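Under all 21 alternatives 0 members were called in either direction. With a library left out in turn, the log2 fold change ran from -1.07 to 0.62 for Shh, -1.52 to 0.89 for Gli1, -0.23 to 7.26 for Gli2 and -1.50 to 1.06 for Gli3, crossing 0 in each; Ptch1, Smo and Sufu kept their sign. The sign also turned with limma-voom for Shh (0.19) and Gli3 (0.74). For Gli1 limma-voom gave -2.55, and for Shh DESeq2 gave -1.64 and RLE scaling -1.63, beyond these ranges. Without both Control 3 and the library labelled Control 4 the sign turned for Shh (0.061), Gli2 (-0.55) and Gli3 (0.64). With the stromal covariate it turned for Ptch1 (0.19), Gli1 (1.19) and Gli3 (0.52). The cause was not tested. The median of all genes tested was 0.16 without both Controls and 0.62 with the stromal covariate, against 0.22 in the main fit. With that covariate Ptch1 and Gli3 lay below the median. The difference in mean log2(CPM + 2), with a library left out, ran from -0.70 to 1.59 for Shh, 1.35 to 3.08 for Smo, -0.65 to 0.54 for Gli1, -0.38 to 1.78 for Gli3 and 0.95 to 1.67 for Sufu (exact permutation p = 0.0485 without Dnmt1cKO 2). Without both of those Controls it was 0.45 for Smo, -0.26 for Gli2, -1.64 for Gli1 and 0.74 for Sufu. Hhip was too low to be fitted in 4 alternatives.

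The wider pathway had 1 gene called higher with DESeq2, and its count of 2 called lower was 4 with RLE scaling, 0 with library totals, 1 without a filter, 5 with DESeq2, 0 with limma-voom, 0 without both Controls, 1 with the code 7 libraries summed, and 0 to 3 with a library left out. Over all genes 132 were called higher and 198 lower; the pair was 170 and 726 with RLE, 113 and 47 with library totals, 487 and 1030 with DESeq2, 7 and 25 with limma-voom, and 45 and 2 without both Controls. With a library left out it ran from 60 to 657 higher and from 36 to 494 lower. The median log2 fold change of all genes was 0.22, 0.072 with RLE and 0.38 with library totals, and no member changed sign between these scalings.

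Deviations of libraries that share a code correlated at -0.046 to 0.054 over 6 pairs. Pairs of different code ran from -0.094 to 0.073. With libraries so unequal in depth, these values cannot tell whether a code pairs libraries. The codes, which the labels do not explain, were used only as an alternative block. With the code as a block, Gli1 was at 0.92 and Gli3 at 0.55, opposite in sign, Smo at 2.69 and Shh at -0.53. The median log2 fold change of all genes tested was 1.09 with the block, against 0.22 without it. Gli1 and Gli3 thus lay below that median, and their change of sign was not particular to them. The block called 0 wider genes lower and 72 of all genes lower. The 543591 counts of the library labelled Control 4 limit what its values of 0 can show.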
